A study of Mus musculus with 4 samples.

Results

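The clusters described here are runs of closely spaced CTCF peaks in mouse calf muscle. In the conservative peak list, the summits on the 19 autosomes were joined into a chain wherever the next summit lay at most 5000 bp away, and chains of 4 or more summits were kept as clusters. Of 41000 autosomal summits, 1492 were members (3.64%, 95% Wilson interval 3.46 to 3.82), and they made up 341 clusters. Members were chosen by the measured summit positions, so the number of members and their spacing are descriptions. Chains of 3 held 3048 summits, chains of 2 held 9188, and 27272 summits stood alone.

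The tissue was gastrocnemius from adult female B6CASTF1/J mice, 2 months old. This strain is a first-generation hybrid, whose cells carry a B6 and a CAST copy of each autosome, and the peaks were placed on mm10 (GRCm38) without telling these copies apart. Both groups, pool E and pool F, were made of 2 tissue samples, and each had 2 libraries labelled as technical replicates from frozen tissue, with fragments of 200 to 600 bp. The groups did not differ in genotype, sex, age or treatment according to the labels, the same control alignment served both, and the conservative list rests on both. Since the lists hold no expression values, the labelled tissue could not be checked against its marker genes. Because each list merges the technical replicates, the values below carry no spread between replicates, and read depth is unknown.

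CTCF is a zinc-finger protein that reads a long, asymmetric DNA motif. Cohesin extrudes loops of chromatin until it meets bound CTCF, and loop ends are typically a pair of motifs that point toward each other, so the strand of each motif bears on which loops can form. Arrays of neighbouring CTCF sites are known at boundaries of chromatin domains and at loci such as the immunoglobulin heavy chain locus, the H19 and Igf2 imprinted locus, the Hox clusters and the protocadherin clusters.

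The cluster with the most summits lay in the immunoglobulin heavy chain locus. Its sites are shown because they share a strand and a few pairs are close in sequence over 34 bases. It covered chr12:113216123-113224407, outside annotated genes, with Igha, the constant region gene of immunoglobulin A, 30423 bp to one side and Tmem121 26600 bp to the other. These genes were named after the values were seen. The nearest annotated gene start was that of the small RNA gene Gm25622, 1974 bp away. Each line gives a site in mm10 coordinates, 5′ to 3′ on the strand of the motif, with the 14 positions of the CTCF core consensus in capitals and 10 bases of flank on either side. Sites are numbered along the chromosome, and the reference bases are from the RefSeq GRCm38.p6 assembly.
Igh site 1 (chr12:113216108-113216141, plus strand, 1 mismatch): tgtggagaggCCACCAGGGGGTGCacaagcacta
Igh site 2 (chr12:113217452-113217485, plus strand, 2 mismatches): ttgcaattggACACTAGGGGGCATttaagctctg
Igh site 3 (chr12:113218076-113218109, plus strand, 2 mismatches): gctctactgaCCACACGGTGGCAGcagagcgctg
Igh site 4 (chr12:113220043-113220076, plus strand, 0 mismatches): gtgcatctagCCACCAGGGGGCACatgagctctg
Igh site 5 (chr12:113220666-113220699, plus strand, 2 mismatches): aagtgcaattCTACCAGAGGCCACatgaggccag
Igh site 6 (chr12:113221398-113221431, plus strand, 0 mismatches): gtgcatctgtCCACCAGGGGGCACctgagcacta
Igh site 7 (chr12:113222206-113222239, plus strand, 2 mismatches): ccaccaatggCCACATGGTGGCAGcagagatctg
Igh site 9 (chr12:113222943-113222976, plus strand, 3 mismatches): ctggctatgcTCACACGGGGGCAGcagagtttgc
Igh site 10 (chr12:113224386-113224419, plus strand, 2 mismatches): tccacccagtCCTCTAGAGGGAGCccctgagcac
A match with at most 2 mismatches and its centre within 50 bp of the summit is called a motif here. By that rule 8 of the 10 summits had a motif, and all 8 were on the plus strand. The best match at the ninth summit had 3 mismatches and was also on the plus strand, and that at the eighth had 5 and is not shown. Sites 4 and 6 had 29 of 34 bases in common, flanks included, and the same 14 bases in capitals. Sites 3 and 7 had 26 of 34 in common, and 13 of the 14 in capitals. These counts include the 14 positions, which were chosen as the best match to one consensus. Over the 36 pairs of the 9 sites shown, the median was 18 of 34 and the range 11 to 29.

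The cluster upstream of H19, a long noncoding gene expressed from the maternal chromosome, is shown because none of its summits had a motif by the rule above, yet its sites share a sequence. Its 4 summits covered chr7:142580302-142582029, between genes, and began 2159 bp upstream of the H19 start. Imprinted expression of H19 and Igf2, a fetal growth factor gene, is known to depend on CTCF binding upstream of H19, which methylation of the paternal copy prevents. The best match at each summit follows.
H19 site 1 (chr7:142580299-142580332, minus strand, 3 mismatches): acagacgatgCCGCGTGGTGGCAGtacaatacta
H19 site 2 (chr7:142580754-142580787, minus strand, 3 mismatches): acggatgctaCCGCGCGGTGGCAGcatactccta
H19 site 3 (chr7:142581780-142581813, minus strand, 4 mismatches): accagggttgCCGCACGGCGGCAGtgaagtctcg
H19 site 4 (chr7:142582024-142582057, minus strand, 3 mismatches): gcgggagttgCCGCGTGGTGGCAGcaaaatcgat
All 4 matches were on the minus strand, the strand of H19, and all held CCGCNNGGNGGCAG, where N is any base. That string was read off these 4 sites, so its presence there is no finding of its own. Searched on both strands, with its centre within 50 bp of the summit, it occurred at 112 of 41000 autosomal summits (0.273%) and at 0 of 80418 windows displaced by 2000 bp from a summit. Outside the H19 cluster it occurred at 7 of 1488 members (0.470%), each in a different cluster. A match with up to 3 mismatches was found at 93.0% of members and in 18.4% of 4888 displaced windows. These windows were drawn from a sample of all autosomal summits, not from members alone. With up to 4 mismatches the shares were 99.2% and 59.4%, so a match of this kind says little by itself.

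H19 summits 3 and 4 were 199 bp apart, the shortest gap in any cluster, which 3 other clusters also had. The 300 reference bases that span both are given on the plus strand of mm10, so the 2 sites, in capitals, read as the reverse complement of the lines above.
H19 region (chr7:142581780-142582079, plus strand): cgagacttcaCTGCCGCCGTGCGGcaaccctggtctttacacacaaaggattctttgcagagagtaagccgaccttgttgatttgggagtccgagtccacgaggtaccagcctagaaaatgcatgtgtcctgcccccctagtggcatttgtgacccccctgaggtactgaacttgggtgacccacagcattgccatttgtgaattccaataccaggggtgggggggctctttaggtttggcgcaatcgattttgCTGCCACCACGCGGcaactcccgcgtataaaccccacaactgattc

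A run of one strand and a switch of strand are shown by a pair of clusters inside genes. In an intron of Ksr2, which encodes a scaffold protein of the Ras and MAP kinase pathway, 5 summits in a row had a motif on the plus strand.
Ksr2 site 1 (chr5:117502795-117502828, plus strand, 1 mismatch): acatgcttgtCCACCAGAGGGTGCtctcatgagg
Ksr2 site 2 (chr5:117504614-117504647, plus strand, 1 mismatch): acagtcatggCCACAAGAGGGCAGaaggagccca
Ksr2 site 3 (chr5:117505330-117505363, plus strand, 0 mismatches): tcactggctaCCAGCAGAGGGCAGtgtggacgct
Ksr2 site 4 (chr5:117506551-117506584, plus strand, 1 mismatch): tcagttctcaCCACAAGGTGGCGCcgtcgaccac
Ksr2 site 5 (chr5:117509718-117509751, plus strand, 1 mismatch): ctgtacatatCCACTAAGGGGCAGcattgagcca
The cluster that ended 269 bp before the start of Cebpb, a transcription factor gene, lay mostly in introns of Tmem189. Its first 3 motifs were on the minus strand and its last 3 on the plus strand, so these groups of motifs pointed away from each other.
Cebpb site 1 (chr2:167675308-167675341, minus strand, 2 mismatches): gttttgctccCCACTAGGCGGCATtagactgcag
Cebpb site 2 (chr2:167678782-167678815, minus strand, 1 mismatch): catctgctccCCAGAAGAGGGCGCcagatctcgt
Cebpb site 3 (chr2:167680116-167680149, minus strand, 1 mismatch): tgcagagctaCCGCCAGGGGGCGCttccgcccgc
Cebpb site 4 (chr2:167680842-167680875, plus strand, 2 mismatches): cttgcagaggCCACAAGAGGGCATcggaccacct
Cebpb site 5 (chr2:167685314-167685347, plus strand, 1 mismatch): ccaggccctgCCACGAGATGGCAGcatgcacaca
Cebpb site 6 (chr2:167688659-167688692, plus strand, 0 mismatches): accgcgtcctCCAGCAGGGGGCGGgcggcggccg
The median number of common bases was 16 of 34 (range 14 to 18) over the 10 Ksr2 pairs. Over the 15 Cebpb pairs it was 15 (11 to 19). For Igh it was 18, and over the 6 H19 pairs 22 (19 to 25). The Igh and H19 sites are shown because of their likeness, so their higher medians follow in part from that choice. Unrelated sites were not compared.

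Most clusters were small. There were 249 clusters of 4 summits, 65 of 5, 22 of 6, 3 of 7, 1 of 8 and 1 of 10. The distance from first to last summit had a median of 7695 bp (quartiles 5752 and 9225) and ran from 1727 bp, at H19, to 18037 bp. Together the clusters covered 2640 kb. The 1151 gaps between neighbouring members had a median of 2113 bp (quartiles 1134 and 3432), beside 2237 bp in chains of 2 and 2352 bp in chains of 3. Gaps under 1000 bp made up 20.3%, and gaps under 300 bp, about the width of a peak, made up 2.61%. Of neighbouring peaks in clusters, 26 pairs (2.26%) overlapped, and 10 member summits shared a peak interval with another summit.

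Near the limits of the rule the members were much like their neighbours. In 97 of the 1016 chains of 3 (9.55%) another summit lay within 6000 bp of an end, and 43 of the 249 clusters of 4 had a gap above 4500 bp. The median strength was 282.6 in chains of 3 and 272.2 in chains of 4. Peak strength is the authors' score for a peak, its scale is not stated, and it is used only to order and describe peaks within the list.

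**Figure D1:**
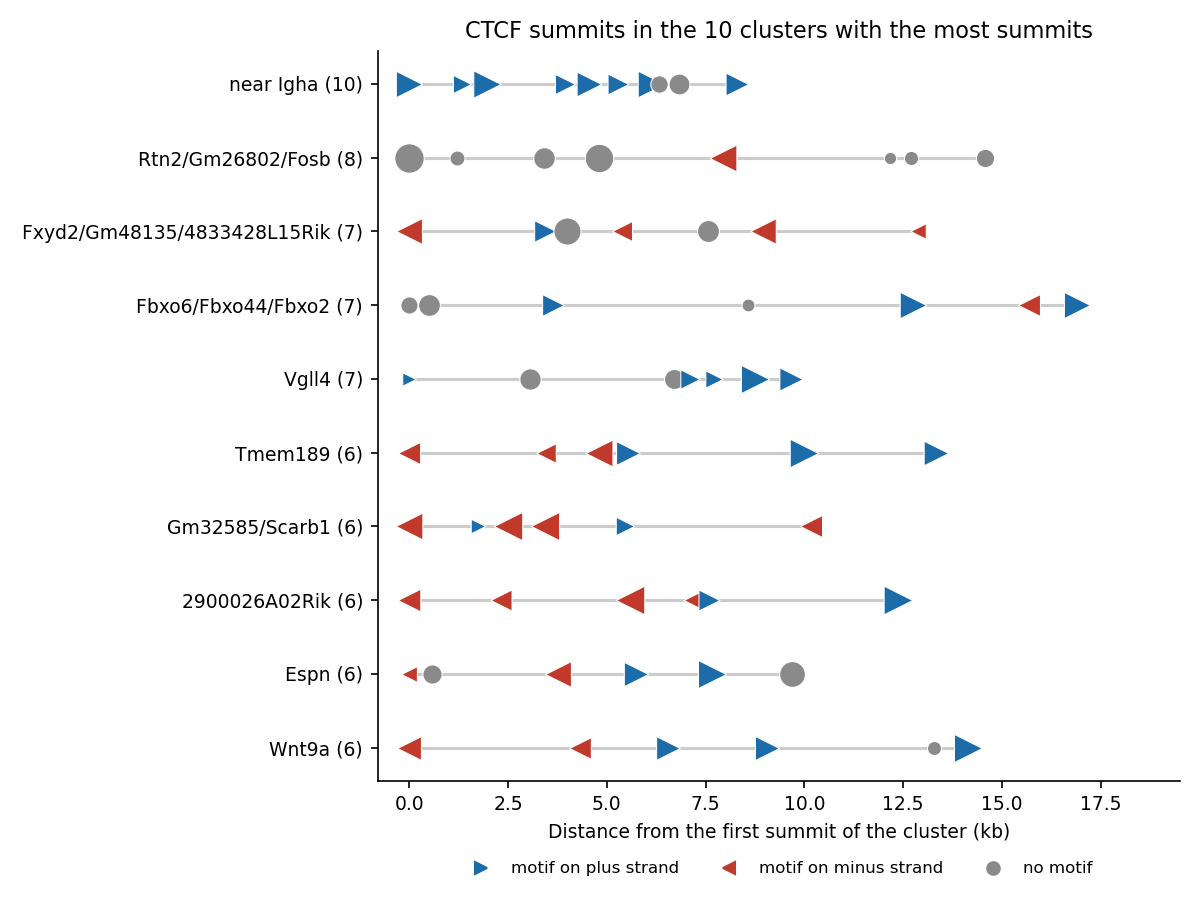
The 10 clusters with the most summits, each drawn from its first summit (x axis, distance in kb; number of summits in parentheses, cluster named by up to 3 genes it overlaps or, for the first, by the nearby Igha). Marker area grows with peak strength and arrows point along the motif strand; all 8 arrows of the Igha cluster point the same way, while the Rtn2, Gm26802 and Fosb cluster has 1 motif among 8 summits.

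The largest clusters differed widely in strength and in motifs. The Igh summits had strengths of 491.6, 196.0, 538.1, 258.5, 424.7, 282.1, 500, 174.7, 281.2 and 351.3 in order along the chromosome. Its weakest summit was the eighth, which lay 200 bp from the seventh in the same peak interval and had no motif. Of these 10 peaks, 9 had a partner in the pool E list and 7 had one in the pool F list, where a partner is a peak with a reciprocal overlap of 50%.

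The next cluster, of 8 summits at chr7:19296024-19310591, spanned Gm26802, a long noncoding gene, and the start of Fosb, a subunit of the AP-1 transcription factor, and reached back into Rtn2, a reticulon gene. Its strengths were 627.3, 111.8, 305.7, 578.3, 508.7, 52.38, 91.99 and 198.4. It thus held one of the strongest peaks of the list, at rank percentile 99.6, and one of the weakest, at 1.66. Only the fifth summit, of 508.7, had a motif, and it lay within Fosb. The last 3 summits, nearest to the start of Fosb, were all under 200 and had none.

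Among the 3 clusters of 7 summits, that at chr9:45408520-45421406 began in an exon of Fxyd2, a regulatory subunit of the sodium pump, with strengths of 468.2, 308.7, 521.3, 252.5, 316.3, 454.1 and 123.2. The cluster at chr4:148151580-148168482 covered the starts of the F-box genes Fbxo6, Fbxo44 and Fbxo2, which encode substrate adaptors of ubiquitin ligases. Its strengths were 168.4, 312.7, 311.5, 63.45, 499.4, 316.4 and 482.9. There the 3 promoter summits had no motif and included the weakest, while the 4 others all had one. In an intron of Vgll4, a TEAD cofactor gene of the Hippo pathway, the 7 strengths were 76.77, 297.1, 251.3, 234.1, 172.5, 574.8 and 367.0, and all 5 motifs were on the plus strand.

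Several clusters of 6 had a motif at every summit. At Cebpb the strengths were 327.9, 238.0, 513.7, 388.7, 588.0 and 421.0, and all 6 peaks had a partner in both pool lists. In an intron of 2900026A02Rik they were 344.5, 289.2, 588.9, 161.4, 287.5 and 596.7, with 4 motifs on the minus strand followed by 2 on the plus strand, the same outward arrangement as at Cebpb. In a cluster across Gm32585 and the 3′ part of Scarb1, the gene of a receptor for high-density lipoprotein, they were 507.3, 100.6, 582.2, 573.1, 206.3 and 325.3. In this cluster the 4 summits with minus-strand motifs were all stronger than the 2 with plus-strand motifs. The cluster in Espn, an actin-bundling protein gene, had strengths of 130.3, 228.6, 467.9, 408.9, 564.0 and 465.0, with motifs at 4 summits. The last of the 10 largest, at the start of Wnt9a, a secreted signalling protein gene, had motifs at 5 of 6 summits.

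The clusters of highest median strength were smaller. In introns of Ssc5d, a scavenger receptor gene, the 4 strengths were 84.29, 582.3, 538.4 and 597.8, a median of 560.4 in spite of the weak first summit. A cluster at chr6:91277775-91286815 had strengths of 491.0, 577.1, 513.0 and 579.6, all high, with motifs on the minus strand at the first 2 summits and on the plus strand at the last 2. It lay between genes. A cluster near Gm11444 had strengths of 551.5, 580.6, 542.8, 513.4 and 120.8, and one at chr12:70910422-70914555 had 574.5, 561.7, 513.8 and 354.8. Every summit of these 4 clusters had a motif.

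Within the typical cluster, strong and weak peaks stood side by side. Between the strongest and the weakest summit of a cluster the median ratio of scores was 4.72 (quartiles 3.08 and 7.09). The SD of strength within clusters was 171.9, close to the 176.3 over all members, while cluster means had an SD of 91.11. A summit in the top quartile of the list was present in 257 of 341 clusters (75.4%). In 33 clusters every summit was above the median, and in 18 every summit was below it. Such counts depend on the number of summits per cluster, and they were not compared with groups of unrelated summits. The strongest summit was at an end in 140 clusters (41.1%), while 45.7% of members were end summits. In clusters of 4, where 498 of 996 were, it was 43.0%. Summits at the ends had a median strength of 263.7 beside 280.7 for those inside.

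As a whole, members were slightly stronger than other autosomal peaks, with medians of 274.0 (quartiles 126.0 and 459.9) and 245.8 (116.0 and 434.3). The median rank percentile was 53.5 for members and 49.9 for the others. Single summits had a median strength of 235.7, chains of 2 had 267.7, clusters of 5 had 244.7, and clusters of 6 or more had 309.3, so the medians had no steady order with chain length. The quartiles of these groups overlapped broadly, and members exceeded the other peaks in median strength on 12 of 19 autosomes.

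**Figure D2:**
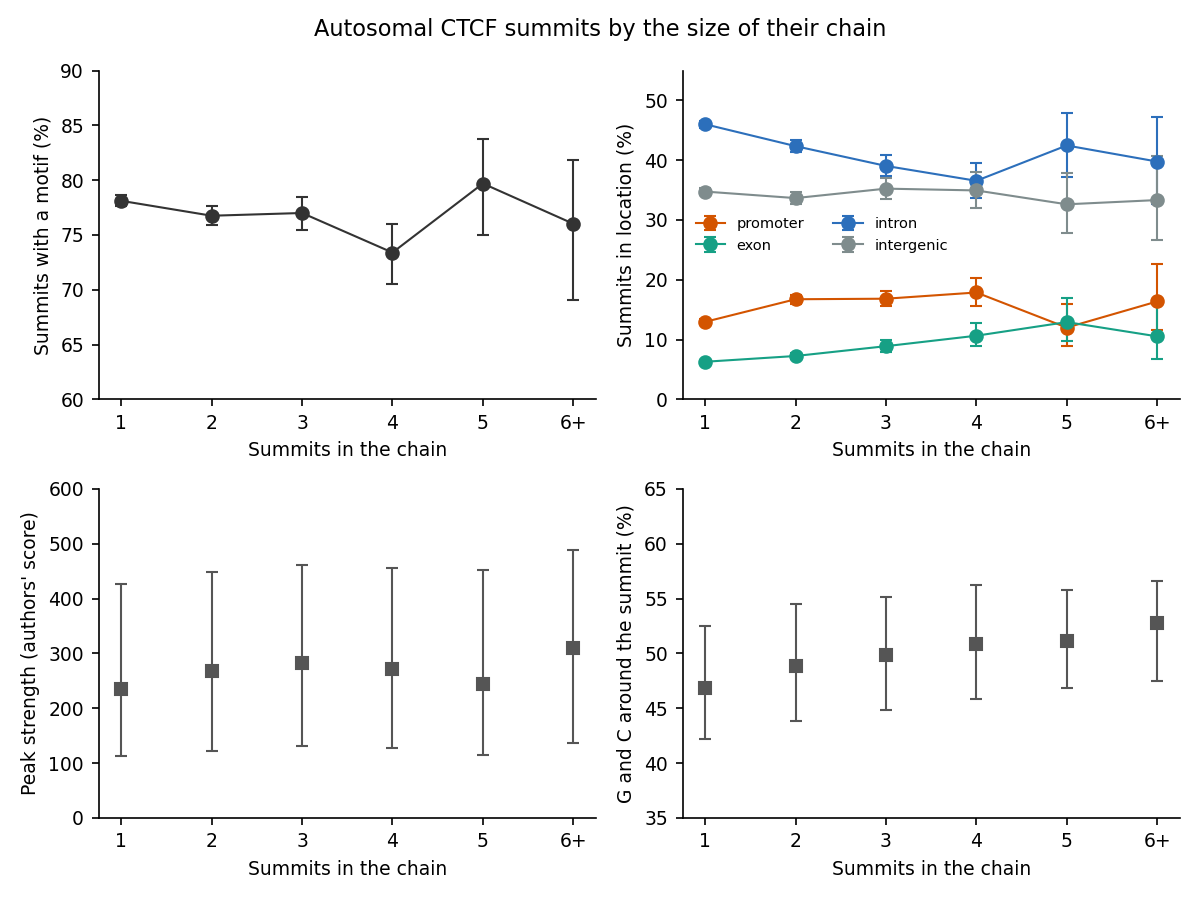
Share of summits with a motif and share in each location (upper panels, %, with 95% Wilson intervals), and peak strength and base composition (lower panels, median with quartiles), by number of summits in the chain (x axis). The exon share and the G and C content are higher in longer chains than in single summits, while the motif share differs little; the upper left axis starts at 60%.

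The share of summits with a motif in clusters was slightly below that of all summits. Among all autosomal summits 77.6% had one. Members had one at 1120 of 1492 summits (75.1%, interval 72.8 to 77.2), single summits at 78.1%, and the share among members was lower than among other summits on 14 of 19 autosomes. By size it was 73.4% (70.6 to 76.04) in clusters of 4, 79.7% (74.98 to 83.7) in clusters of 5 and 76.02% (69.1 to 81.8) in larger ones. With summits under 300 bp apart counted as 1, it was 76.3% (74.0 to 78.5) over all clusters. In promoters 53.5% of members (47.2 to 59.6) and 56.4% of other summits had a motif, in exons 71.1% (63.8 to 77.4) and 74.8%, in introns 79.3% (75.8 to 82.4) and 80.8%, and between genes 82.0% (78.4 to 85.1) and 83.0%. The interval of the members held the value of the other summits in each location. Over all locations together it lay below the 77.6% of all autosomal summits. Windows displaced by 2000 bp from a member summit, and more than 200 bp from any summit, had a motif in 4.13% of cases (3.44 to 4.95), beside 2.79% (2.68 to 2.91) around other summits.

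Match quality and strength went together in clusters as they did elsewhere. Members with an exact match had a median strength of 463.0 (n = 194), those with 1 mismatch 346.7 (n = 462), those with 2 mismatches 233.4 (n = 464), and those with no motif 157.3 (n = 372). For the other autosomal summits these medians were 446.9, 314.6, 200.2 and 144.9. In each of the 4 classes members had the higher median, and the classes kept the same order.

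In 128 clusters (37.5%) every summit had a motif, and in 16 of these all motifs were on one strand. At the other extreme, 7 clusters had no motif at all. These included the H19 cluster and a pair in the gamma protocadherin genes. Runs of 4 or more neighbouring summits with motifs on the same strand occurred in 26 clusters and runs of 5 or more in 3, those near Igha and in Ksr2 and Slc37a1. Motifs on unlinked strands would also give such runs, and clusters with all motifs on one strand. The numbers to expect were not worked out. The rule for naming runs, which passed over summits without a motif, also picked Vgll4 and Gm11444. The run of 5 in Slc37a1 lay in an intron of that gene, which encodes a sugar phosphate transporter. The Slc37a1 summits had strengths of 266.1, 84.29, 406.4, 110.0 and 337.5, all with motifs on the plus strand, and the 2 weak ones had no partner in pool F.

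Neighbouring motifs in clusters were somewhat more often than not in tandem, that is on the same strand. Motifs on unlinked strands would be in tandem as often as not. Of 694 neighbouring pairs of members that both had a motif, 55.2% (51.5 to 58.9) were in tandem and 17.6% (14.9 to 20.6) were convergent, pointing toward each other. The other 27.2% (24.1 to 30.7) were divergent. Chains of 2 gave 56.7%, 17.4% and 25.9%, and chains of 3 gave 54.4%, 17.98% and 27.7%, so pairs in clusters did not stand apart from other close pairs within these intervals. The tandem share in clusters was 64.2% (55.4 to 72.15) for gaps up to 1000 bp (n = 123). It was 59.6%, 51.0% and 51.5% in the next 3 classes of 1000 bp. For gaps from 4000 to 5000 bp it was 47.4% (37.8 to 57.3, n = 97), and this interval overlapped that of the shortest gaps. In the shortest and longest class it was 57.8% and 54.7% in chains of 2, and 53.9% and 56.6% in chains of 3.

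The first and last motif of a cluster faced outward more often than inward. Among 313 clusters with at least 2 motifs, 37.4% (32.2 to 42.9) had a divergent outer pair, 12.8% (9.53 to 16.9) a convergent one, and 49.8% had both on one strand. In chains of 3 the divergent share was 32.0% and the convergent share 17.5%. In clusters of 4 they were 34.1% and 14.8%, and in clusters of 5 or more 45.6% (35.7 to 55.8) and 7.78% (3.82 to 15.2) of 90. The intervals of neighbouring classes overlapped.

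**Figure D3:**
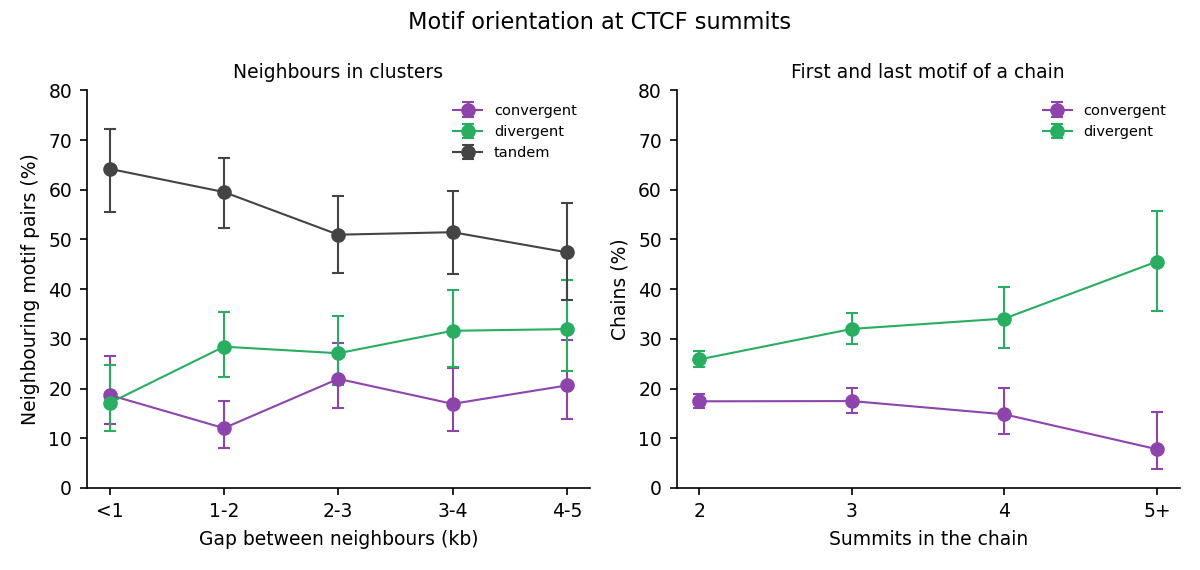
Left, orientation of neighbouring motif pairs in clusters by gap (x axis, kb; y axis, % of pairs); right, chains whose first and last motifs are convergent or divergent, by number of summits in the chain (y axis, % of chains). Bars are 95% Wilson intervals; the divergent share of outer motifs is 25.9% in chains of 2 and 45.6% in clusters of 5 or more, and the convergent share is 17.4% and 7.78%.

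Clusters lay in sequence richer in genes than other summits. Around members the median number of protein-coding gene starts within 100 kb was 4 (quartiles 2 and 7), beside 2 (1 and 5) around the others, and it was higher on 16 autosomes and lower on none. The nearest gene start was at a median of 6118 bp from a member and 11010 bp from another summit. The median G and C content over 301 bp was 51.2% for members, 47.5% for other summits and 46.8% for single summits, and members were higher on 17 of 19 autosomes. Shorter chains went the same way, so these traits were not particular to clusters. Chains of 3 had medians of 3 starts, 6666 bp and 49.8%, and chains of 2 had 3 starts, 8220 bp and 48.8%. How far one of these differences accounts for another was not tested.

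By location, members lay more often in exons and less often in introns than other summits. Exons outside promoters held 6.87% of all autosomal summits, 11.1% of members (9.63 to 12.8) and 6.71% of the others, and members had the higher share on 17 of 19 autosomes. Promoters, within 1000 bp of a gene start, held 14.2% of all summits, 16.4% of members (14.6 to 18.4) and 14.1% of the others, with members higher on 10 autosomes and lower on 9. Introns held 38.2% of members and 44.6% of the others, and intergenic sequence 34.3% and 34.5%. Shorter chains had much of the same profile, so it was not particular to clusters. Exons held 8.89% of summits in chains of 3 and 7.25% in chains of 2. Promoters held 16.8% and 16.7%, and introns 39.04% and 42.35%. Soft-masked repeats held 20.5% of members and 19.8% of the others.

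Seen as units, 140 clusters (41.1%) had a gene start between the first and the last summit, and 103 (30.2%) had a protein-coding one. In 17 clusters at least 2 protein-coding genes started. A further 97 clusters lay inside a gene without a start in them, and 71 (20.8%) overlapped no gene. In 4 clusters all summits were promoter summits. These counts were not compared with shorter chains or with stretches of like length.

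The share of summits in clusters was not even over the genome. It ran from 1.74% on chromosome 3, with 35 members, to 5.82% on chromosome 11, with 183 members in 41 clusters. Across the 19 autosomes the share went with the density of protein-coding genes (Pearson's r = 0.638, Spearman's rho = 0.684) and with summits per Mb (r = 0.748, rho = 0.711). These are descriptions over 19 points, and the rule itself uses the spacing of summits, so the second relation is in part built in. On chromosome 14, where only 30 members in 7 clusters were found, 40.0% of them had a motif, beside 77.4% of its other summits. On chromosomes 16 and 18 it was 54.8% and 54.05% of members, beside 78.7% and 73.1% of other summits. Few clusters stood behind these values, 7 and 9 on chromosomes 16 and 18. Members had the higher motif share on 5 of 19 autosomes.

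Gene families and marker lists gave few clusters each. Of 20807 protein-coding genes, 217 (1.04%) had a member summit at most 5000 bp from their start, while 38.2% had any summit that near. Of 58 clustered protocadherin genes 8 did (13.8%), from 2 clusters, and of 39 Hox genes 3 did (7.69%), from 1 cluster. Genes of the same family share summits, so these are counts of genes and not of independent sites. In the contractile and metabolic muscle list it was 2 of 60 genes, among muscle transcription factors and satellite cell genes 1 of 37, among imprinted genes 1 of 62, and among zinc finger genes named Zfp 3 of 367. Among markers of other cells of the tissue it was 2 of 19 fibroblast genes, 1 of 20 endothelial and mural genes, 0 of 20 immune genes and 0 of 19 neuronal and Schwann cell genes. No member lay that near a histone (0 of 69), H2 (0 of 45), keratin (0 of 50), olfactory receptor (0 of 1101) or cohesin and CTCF gene (0 of 35). At these list sizes the upper Wilson bound on a count of 0 ran from 0.348% for olfactory receptor genes to 16.8% for neuronal and Schwann cell genes. These bounds take genes as independent. The share of genes with any summit that near differed between lists. It was 32 of 1101 olfactory receptor genes (2.91%), 3 of 50 keratin genes and 3 of 20 immune genes. None of these summits was a member. In the other lists with no member near it was 31.9% (histone), 40.0% (H2), 42.9% (cohesin and CTCF) and 47.4% (neuronal and Schwann cell). Of genes with such a summit, 8 of 42 protocadherin and 3 of 23 Hox genes had a member there. Among all protein-coding genes it was 2.73%. How far these shares account for the member counts was not tested.

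The muscle genes with a cluster had quite different arrangements. At Myod1, the master regulator of the myogenic lineage, 4 summits with strengths of 373.3, 243.5, 455.8 and 219.0 lay within the gene and just beyond it, the first 716 bp after the start. All 4 had a motif, the first against the direction of the gene and the other 3 along it, and all 4 had a partner in both pool lists. At Mybpc2, the fast skeletal isoform of myosin-binding protein C, the strengths were 222.4, 353.5, 47.79 and 470.9. The summit of 47.79, in an intron, was among the weakest of the list at rank percentile 0.834, and only the strongest, outside the gene, had a partner in pool F.

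Slc2a4 encodes the insulin-responsive glucose transporter GLUT4. Its cluster began 898 bp upstream of the gene start with a summit of 582.4 and continued away from the gene with 178.0, 75.56, 90.15 and 162.9. All 5 summits had a motif, with 1 mismatch at the first and 2 at the others, and the summit nearest to Slc2a4 was several times stronger than the others. The last 3 lay in soft-masked repeats. The peak of 75.56 had no partner in pool F, and that of 90.15 had none in either pool list.

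**Figure D4:**
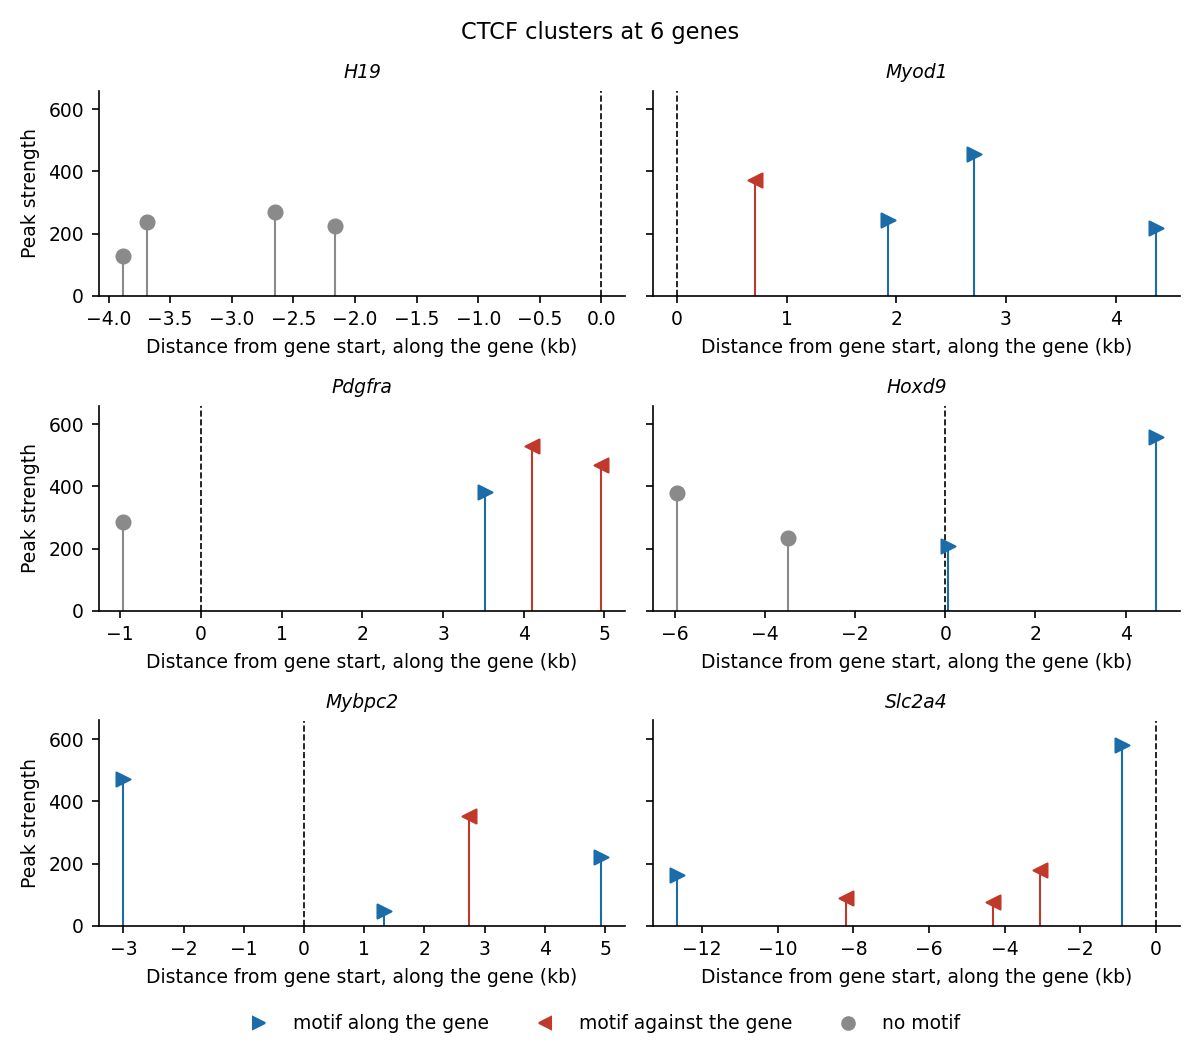
Peak strength (y axis, authors' score) of each summit in the clusters at 6 genes against distance from the gene start in the direction of transcription (x axis, kb; dashed line, gene start). Arrows point along the motif; the 4 H19 summits have no motif at up to 2 mismatches, and the Slc2a4 cluster has its strongest summit, 582.4, next to the start.

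At H19 the strengths were 223.7, 269.3, 237.4 and 127.9, near or below the median of the list. All 4 peaks had a partner in the pool E list, and those of summits 1 and 3 had one in the pool F list. The start of Igf2, a gene named here after its position was seen, lay 84787 bp beyond the cluster. Which parental copy was bound cannot be read from these lists.

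Among the markers of other cells, Pdgfra, a growth factor receptor gene of fibroblasts and fibro-adipogenic progenitors, had strengths of 285.9, 380.7, 529.1 and 468.8. The first summit, before the gene start, had no motif, and the 3 inside the gene had one. Col1a1, the main fibrillar collagen gene, had strengths of 512.5, 577.1, 395.6 and 114.2, all with motifs on alternating strands. Esam, an adhesion molecule gene of endothelial cells, had lower strengths of 67.39, 260.1, 59.54, 203.6 and 215.4, with motifs at the first 2 summits. A peak gives no sign of the cell type it came from, so the share of muscle fibres and other cells behind each value cannot be told apart.

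In the Hoxd cluster of body axis genes, 4 summits lay from the start of Hoxd10 past that of Hoxd9 toward Hoxd8, with strengths of 379.8, 235.1, 208.5 and 558.6. The first pair had no motif, and the second pair had motifs on the plus strand, along the genes. In the gamma protocadherin genes, which give neurons their surface identity, the cluster at Pcdhga10 and Pcdhgb7 had strengths of 270.6, 116.5, 285.6 and 189.1, and that at Pcdhgb2 had 129.9, 91.14, 143.2 and 168.7. All 8 summits lay in promoters and none had a motif. The peaks of 116.5 and 129.9 had no partner in either pool list. Those of 270.6, 91.14 and 168.7 had one in pool E only, and the others had one in both. The zinc finger genes with a cluster were Zfp503, with 492.7 as its strongest summit near the start, Zfp469, annotated here as a long noncoding gene, with 548.0 and Zfp853 with 97.33.

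Few summits of a cluster were copies of one another. Windows of 201 bp around the summits of a cluster were aligned with each other, and a pair counted as alike when at least 100 bp aligned at 75% identity or more. This held for 11 of 2604 pairs (0.422%), in 11 clusters (3.23%). Each of these clusters had 1 such pair, so none consisted of copies throughout. The Igh and H19 clusters were not among them. Of neighbouring pairs in clusters 0.524% (0.240 to 1.14) were alike, beside 0.656% (0.460 to 0.935) in chains of 2 and 1 of 340 pairs made of the first summits of successive clusters. In 9 of the 11 pairs the copies had the same strand. The highest identities were 97.5%, in the Pcdhga10 and Pcdhgb7 cluster, and 96.3%, in a cluster at chr4:88755099-88763587 that overlaps Gm13283. Reads from near-identical copies may be placed at either one, so these peaks are less certain.

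The clusters were found again in the lists of single pools to different degrees. A partner in the pool E list was found for 87.7% of all autosomal summits and 87.8% of members. In the pool F list it was found for 66.2% of all and 69.8% of members (67.5 to 72.1). Counting any summit within the span of a cluster, 293 clusters (85.9%) had 4 or more pool E summits and 192 (56.3%) had 4 or more pool F summits. No cluster was without a pool F summit, and 13 had 1. The pool lists share reads with the conservative list and the pool F list is shorter, so these counts are no independent replication. A further 258 candidate peaks that did not pass the reproducibility threshold lay inside 160 clusters (46.9%).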

How the data were processed

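The 4 CTCF ChIP-seq libraries (2 from each of pool E and pool F) stand behind the deposited peak lists, which merge technical replicates according to the deposited notes. Strength is the authors' deposited score, on an unstated scale. Ranked lists give the deposited −log10 of the irreproducible discovery rate (IDR), and the thresholded lists keep peaks at 0.05 or less. The aligner and peak caller are not given in the sources used here, and depth is unknown.

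Summits (peak start plus offset) of the 41000 autosomal peaks were chained at 5000 bp; the 1163 X peaks were left out. Motifs were matches to the CTCF core consensus, location followed GENCODE M21 on the autosomes (51229 genes), and sequences were from RefSeq GRCm38.p6. Alignments used match 1, mismatch -1, gap opening -3 and extension -1. Scripts ran in Python 3.11.15 with pandas 2.3.3, numpy 2.4.6, scipy 1.17.1, Biopython 1.88 and matplotlib 3.10.9, and were checked on simulated data.

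Named were the 10 clusters with the most summits, the 5 of highest median strength, the 5 with the longest runs of one strand (summits without a motif passed over), and in each of 15 gene lists the 3 genes with the most member summits; 1 of the clusters of highest median strength is not reported here. Members and lists were chosen with earlier results of these data known. No test was made: peaks are not replicates, and 95% Wilson intervals cover counting error only. Alternative lists, gaps, chain lengths, mismatches, windows and overlaps are in the closing section.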

Additional observations from a re-analysis of the deposited data

How the results depend on the processing

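Of 53 alternatives, 23 left a value inside the 95% interval of the value reported and 30 moved it; the cause was not tested beyond what each setting itself changes. The share of summits in clusters, 3.64%, was 4.83% in the combined list, 5.2% in pool E and 2.65% in pool F. It was 0.893% with gaps up to 2.5 kb and 12.7% with 10 kb, 11.1% with chains of 3 or more and 0.417% with 6 or more, 3.44% after merging summits under 300 bp apart, and 1.08% among the 20500 strongest peaks. The motif share of members, 75.1%, was 71.0% in the combined list, 70.1% in pool E, 79.6% in pool F, 69.9% with 2.5 kb gaps, 82.8% among the strongest peaks, 44.0% with 1 mismatch and 93.0% with 3. The promoter share, 16.4%, was 18.9% in pool E, 20.2% with 2.5 kb gaps, 11.8% among the strongest peaks, 10.9% within 500 bp, 26.3% within 2000 bp and 11.7% with protein-coding genes only. The convergent share of neighbouring pairs, 17.6%, was 22.1% in clusters of 6 or more, 14% among the strongest peaks and 12.7% with 1 mismatch, and the median rank was 58.1 in clusters of 6 or more. A partner in pool E was found for 95% of members with 1 bp of overlap and 77.6% with 80%, and in pool F for 81.2% and 8.24%.

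No paired analysis was possible because no list holds a single library and no result comes from a test. For the same reason no replicate was left out in turn. Depth is unknown, so how it limits the pool F list was not tested.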
